A study of Mus musculus with 4 samples.

Results

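Markers of radial glia and astrocytes were examined in the newborn mouse brain after prenatal exposure to titanium dioxide nanoparticles (TiO2-NP). The group consisted of 10 genes, picked as cell type markers with earlier results of these data known, but not by their values. For radial glia these were Fabp7, Nes, Vim and Hopx, and for astrocytes Gfap, Aqp4, Aldh1l1, S100b, Glul and Aldoc. They were 10 of the 20660 genes that could be named on the array and were read by 14 of its 55681 probes, which are short DNA strands that each capture 1 transcript. Pregnant C57BL/6J mice received 25 μL of fluid into the trachea, either a TiO2-NP suspension of 4 μg/μL, which is 100 μg per mouse (TiO2-H), or the vehicle, the same suspension filtered free of particles (Sham). The sources give gestational day 10.5 for this, and the sample labels also give day 14. Whole brains of the offspring were taken on postnatal day 1. Male and female offspring were kept apart, which gave 4 groups. In each, the RNA of 2 offspring per dam was pooled over all dams, 5 for Sham and 6 for TiO2-H, and 1 pool was hybridized to 1 array. The male and female pools of an exposure thus came from the same dams. The question was whether mRNA levels of these glial markers differed between the offspring of exposed and Sham dams. As the tissue was whole brain, fewer cells of a type and less RNA per cell cannot be told apart.

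Radial glia are the stem cells of the developing brain. They span the wall of the neural tube, give rise to neurons and guide their migration, and around birth many of them turn into astrocytes. Astrocytes take up glutamate, supply neurons with metabolites and line the blood vessels with their endfeet. Markers of radial glia are therefore still present in the newborn brain while those of mature astrocytes are being built up.

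The sequence before the transcription start is shown for 4 markers, chosen by their order on the arrays and not by the size of their differences. Fabp7, Nes and S100b are the markers that lay above Sham on both TiO2-H arrays, and Gfap is the astrocyte marker that lay below and had several probes. Each line gives the 250 bases upstream of the start, 5′ to 3′ in the direction of the gene, taken from RefSeq on GRCm38.p6, with every CG dinucleotide, the site of DNA methylation in mammals, in capitals. The stretches are chr10:57784673-57784922 on the plus strand (Fabp7), chr3:87970843-87971092 on the plus strand (Nes), chr10:76253586-76253835 on the plus strand (S100b) and chr11:102897201-102897450 on the minus strand (Gfap).
Fabp7: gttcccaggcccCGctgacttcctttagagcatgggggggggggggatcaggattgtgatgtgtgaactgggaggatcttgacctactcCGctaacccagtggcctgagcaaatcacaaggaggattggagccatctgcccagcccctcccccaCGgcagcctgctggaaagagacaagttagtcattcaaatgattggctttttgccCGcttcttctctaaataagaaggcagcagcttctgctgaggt
Nes: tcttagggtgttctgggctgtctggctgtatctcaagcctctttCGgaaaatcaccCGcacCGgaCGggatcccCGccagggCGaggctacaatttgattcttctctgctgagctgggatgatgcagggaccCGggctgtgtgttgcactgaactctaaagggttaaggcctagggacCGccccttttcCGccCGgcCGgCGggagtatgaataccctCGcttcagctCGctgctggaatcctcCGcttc
S100b: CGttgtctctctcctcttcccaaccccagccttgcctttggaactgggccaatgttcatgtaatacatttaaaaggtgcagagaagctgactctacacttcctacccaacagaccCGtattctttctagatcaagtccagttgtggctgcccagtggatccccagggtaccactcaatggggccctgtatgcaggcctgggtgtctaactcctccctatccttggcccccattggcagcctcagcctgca
Gfap: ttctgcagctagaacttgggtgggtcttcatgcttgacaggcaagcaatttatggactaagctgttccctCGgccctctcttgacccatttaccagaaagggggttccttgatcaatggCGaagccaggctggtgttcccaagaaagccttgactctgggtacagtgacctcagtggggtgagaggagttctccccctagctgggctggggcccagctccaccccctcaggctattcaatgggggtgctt

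The Fabp7 stretch held 4 CG dinucleotides, that of Nes 15, and those of S100b and Gfap 2 each, against a median of 6 over 32851 upstream stretches of the same length. Those before 27.3% of all starts held as many CG as Nes, and 29.0% held as few as S100b and Gfap. Upstream stretches were available for 9 of the 10 markers, with 11 starts. None was available for Aqp4, which had the marker probe with the largest log2 difference (0.28). The number of CG ranged from 2 (Gfap, S100b) to 18 (1 of the starts of Hopx). TATAAA, the core of the TATA box, was searched on both strands and was found before 1 of the 11 starts, 32 bases upstream of that of Vim, and in 12.4% of all stretches. GTGGGAA, a core bound by the Notch effector RBPJ, was found before 1 start of Aldoc and in 5.42% of all stretches. TTCNNNGAA, the motif of STAT factors, was found before the other start of Aldoc and in 7.02%. These are matches of letters and not measured sites. S100b, which lay above Sham, and Gfap, which lay below by its brightest probe only, held 2 CG each. Whether CG number goes with direction was not tested.

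Between 56.2% and 61.2% of the spots of an array were well above background, as the scanner software calls a spot brighter than its surroundings, and none was saturated. Each signal was divided by the 75th percentile of its array (795.3 to 810.4 for Sham, 867.4 to 870.7 for TiO2-H), so that a scaled signal of 1 is the level of that percentile. The Sham arrays occupied row 1 of the slide and the TiO2-H arrays row 2, so that slide row and exposure cannot be told apart. The TiO2-H arrays went against their sex labels. Signals of Xist, the RNA of the inactive X chromosome, were 276 and 347 on Sham female and the array labelled TiO2-H male but 17.9 and 5.36 on Sham male and the array labelled TiO2-H female. The Y-linked Eif2s3y had the reverse order with 419 and 6.40 against 3519 and 4345. Likewise, Ddx3y had 142 and 7.18 against 1418 and 1783. Eif2s3y and Ddx3y were thus well above background on Sham female too (419 and 142), and the reason was not tested. The brighter Uty probe had 7.85 and 7.19 against 34.8 and 68.7 but was well above background on 1 array only, and no array read Kdm5d above background. Therefore, every direction within a sex is given by label only, and exposure was compared over the pools of both sexes, as 2 TiO2-H arrays against 2 Sham arrays. An exact permutation test of 2 against 2 cannot go below p = 0.33, and precision is limited by the number of arrays. limma was therefore fitted to all 35626 probes that were well above background on at least 1 array. With limma, 0 probes (0%) reached an adjusted p under 0.05 and the lowest adjusted p was 0.311, while 4968 probes (13.9%) had an unadjusted p under 0.05.

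All 14 marker probes were well above background on all 4 arrays. None of them reached an adjusted p under 0.05 (limma), and the lowest was 0.351, shared by S100b and the second probe of Aqp4. These were the 2 of 14 with an unadjusted p under 0.05, a share close to the 13.9% of all probes tested. The log2 difference of TiO2-H minus Sham ranged from -0.10 to 0.28 over the probes, with an SE of 0.04 to 0.08 (n = 2 arrays per exposure). The markers split by their own order on the arrays: Fabp7, Nes and S100b lay above Sham on both TiO2-H arrays, Gfap, Aldh1l1 and Aldoc lay below, and Vim, Hopx, Aqp4 and Glul overlapped (for genes with several probes, by the brightest).

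**Figure D1:**
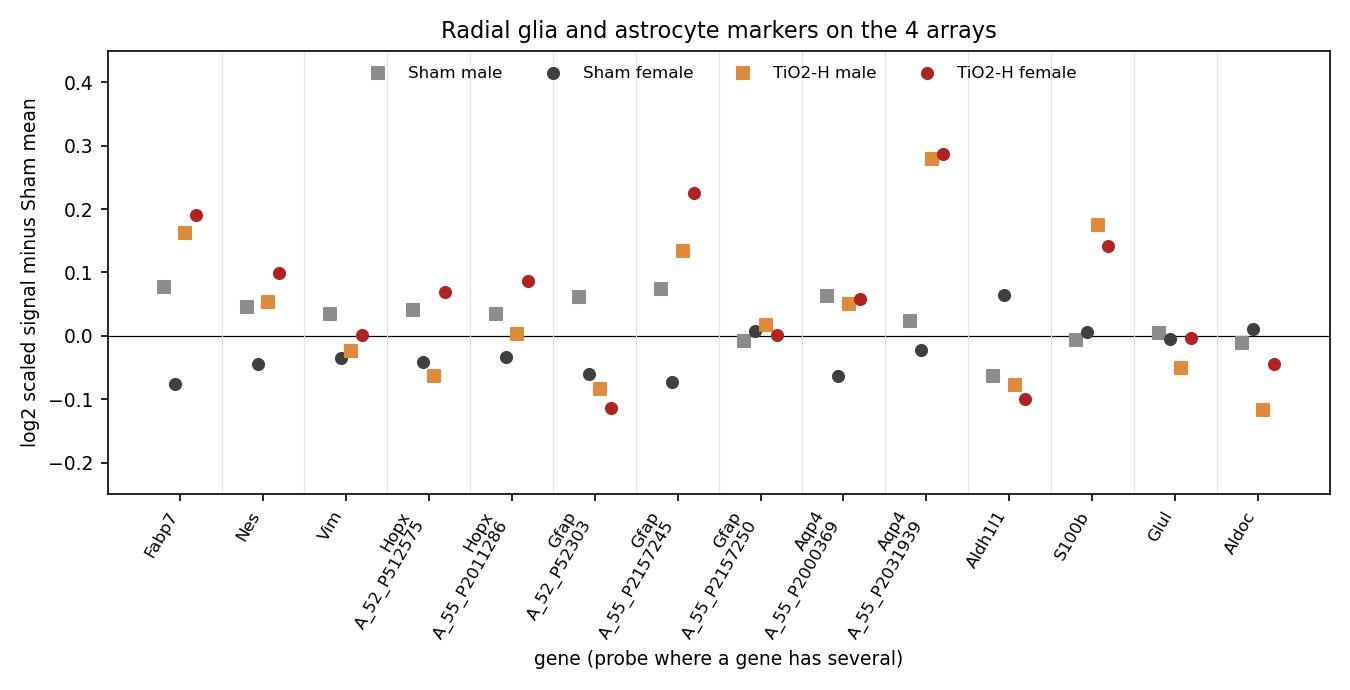
Scaled signal of the 14 marker probes on the 4 arrays, as the log2 value minus the mean of both Sham arrays for the same probe (y axis); squares are arrays labelled male, circles arrays labelled female, grey Sham and orange or red TiO2-H. The second Aqp4 probe and S100b show both TiO2-H arrays furthest above a tight Sham pair, whereas for Vim, Hopx and Glul the colours mix.

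Among the radial glia markers, Fabp7 (NM_021272), the brain fatty acid binding protein that radial glia use to bind lipids, was read with a scaled signal of 91.9 on Sham male, 82.7 on Sham female, 97.6 on the array labelled TiO2-H male and 99.5 on that labelled TiO2-H female. The corresponding processed signals were 74503, 65773, 84631 and 86625. Both TiO2-H arrays lay above both Sham arrays, and the Sham arrays differed more from each other (log2 difference of female minus male -0.15) than the TiO2-H arrays did (0.03). The log2 difference of TiO2-H minus Sham was 0.18 ± 0.07 (SE), a 1.13-fold level with a 95% interval of 0.968 to 1.32, and did not pass the test (limma, adjusted p = 0.393).

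Nes (NM_016701) encodes nestin, the intermediate filament protein of neural stem cells. Its scaled signal was 3.41 on Sham male, 3.20 on Sham female, 3.43 on the array labelled TiO2-H male and 3.54 on that labelled TiO2-H female. The lower TiO2-H array exceeded the higher Sham array only in the second decimal. The log2 difference was 0.08 ± 0.06 (SE, 95% interval -0.10 to 0.25, limma, adjusted p = 0.55). Vim (NM_011701), for the filament protein vimentin, which assembles with nestin in radial glia, had 18.2, 17.4, 17.5 and 17.8 in the same order of arrays. Here the groups overlapped and the log2 difference was -0.01 ± 0.05 (SE, 95% interval -0.16 to 0.14).

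Hopx (NM_175606), a small homeodomain protein without DNA binding of its own that marks radial glia and later astrocytes, was read by 2 probes. The brighter (A_52_P512575) had scaled signals of 2.18 and 2.06 on Sham male and female and 2.03 and 2.23 on the arrays labelled TiO2-H male and female, so that the TiO2-H arrays enclosed the Sham arrays. Its log2 difference was 0.00 ± 0.07 (SE), and that of the second probe (A_55_P2011286), with 1.89, 1.81, 1.85 and 1.96, was 0.04 (limma, adjusted p = 0.726). Both Hopx probes overlapped between the groups.

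Among the astrocyte markers, S100b (NM_009115), a calcium-binding protein released by astrocytes, had the Sham arrays closest together of the markers that lay above Sham. Its scaled signal was 1.56 on Sham male, 1.57 on Sham female, 1.76 on the array labelled TiO2-H male and 1.72 on that labelled TiO2-H female, from processed signals of 1261, 1248, 1530 and 1501. The gap between the groups was larger than the gap within either group. The log2 difference was 0.16 ± 0.04 (SE), a 1.12-fold level with a 95% interval of 1.02 to 1.22, but it did not pass the test over all probes (limma, adjusted p = 0.351). A larger absolute difference was found for 25.9% of all genes tested.

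Aqp4 (NM_009700), the water channel of the astrocyte endfeet, was read by 2 probes that differed from each other. The brighter (A_55_P2000369) had scaled signals of 1.58 on Sham male, 1.45 on Sham female, 1.57 on the array labelled TiO2-H male and 1.57 on that labelled TiO2-H female, and its groups overlapped (log2 difference 0.05 ± 0.06, SE). The second (A_55_P2031939) had 1.36, 1.32, 1.62 and 1.63, from processed signals of 1101, 1047, 1407 and 1421, with both TiO2-H arrays clear of both Sham arrays. Its log2 difference was 0.28 ± 0.04 (SE), a 1.22-fold level with a 95% interval of 1.11 to 1.34 (limma, adjusted p = 0.351). This was the largest difference of the 14 marker probes, and 9.9% of genes had a larger absolute one. As the probes of the same gene gave 0.05 and 0.28, no single value can be stated for Aqp4.

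Gfap, the intermediate filament protein by which astrocytes are usually recognized, was read by 3 probes on 2 transcript entries, and these also differed. The brightest (A_52_P52303, NM_001131020) had scaled signals of 1.80 on Sham male, 1.65 on Sham female, 1.63 on the array labelled TiO2-H male and 1.59 on that labelled TiO2-H female. Both TiO2-H arrays lay below, by a small margin to Sham female, and the log2 difference was -0.10 ± 0.06 (SE, 95% interval -0.29 to 0.09, limma, adjusted p = 0.505). A dim probe of the same entry (A_55_P2157245) had 0.0792, 0.0716, 0.0826 and 0.0881, a log2 difference of 0.18 ± 0.08 (SE) with both TiO2-H arrays above (limma, adjusted p = 0.405). The error that the scanner software assigned to its spots was 12% to 16%, against 10% for the brightest Gfap probe. The probe of the other entry (A_55_P2157250, NM_010277) had 0.552, 0.558, 0.562 and 0.555 and a log2 difference of 0.01 (limma, adjusted p = 0.92). The 3 probes of Gfap therefore lay below, above and level with Sham, and no direction was common to them.

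Aldh1l1, Glul and Aldoc encode enzymes that mark astrocytes. Aldh1l1 (NM_027406), an enzyme of folate metabolism, had scaled signals of 19.1 and 20.8 on Sham male and female and 18.9 and 18.6 on the arrays labelled TiO2-H male and female. The lower Sham array was nearly level with the TiO2-H arrays, and the log2 difference was -0.09 ± 0.07 (SE, 95% interval -0.29 to 0.11, limma, adjusted p = 0.545). Aldoc (NM_009657), the brain form of the glycolytic enzyme aldolase, had 96.0, 97.5, 89.2 and 93.8 in the same order, with both TiO2-H arrays below and a log2 difference of -0.08 ± 0.05 (SE, 95% interval -0.23 to 0.07, limma, adjusted p = 0.497). Glul (NM_008131), glutamine synthetase, which converts the glutamate taken up by astrocytes, had 9.50, 9.44, 9.15 and 9.45. Its groups overlapped, and the log2 difference was -0.03 ± 0.04 (SE, 95% interval -0.16 to 0.11).

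**Figure D2:**
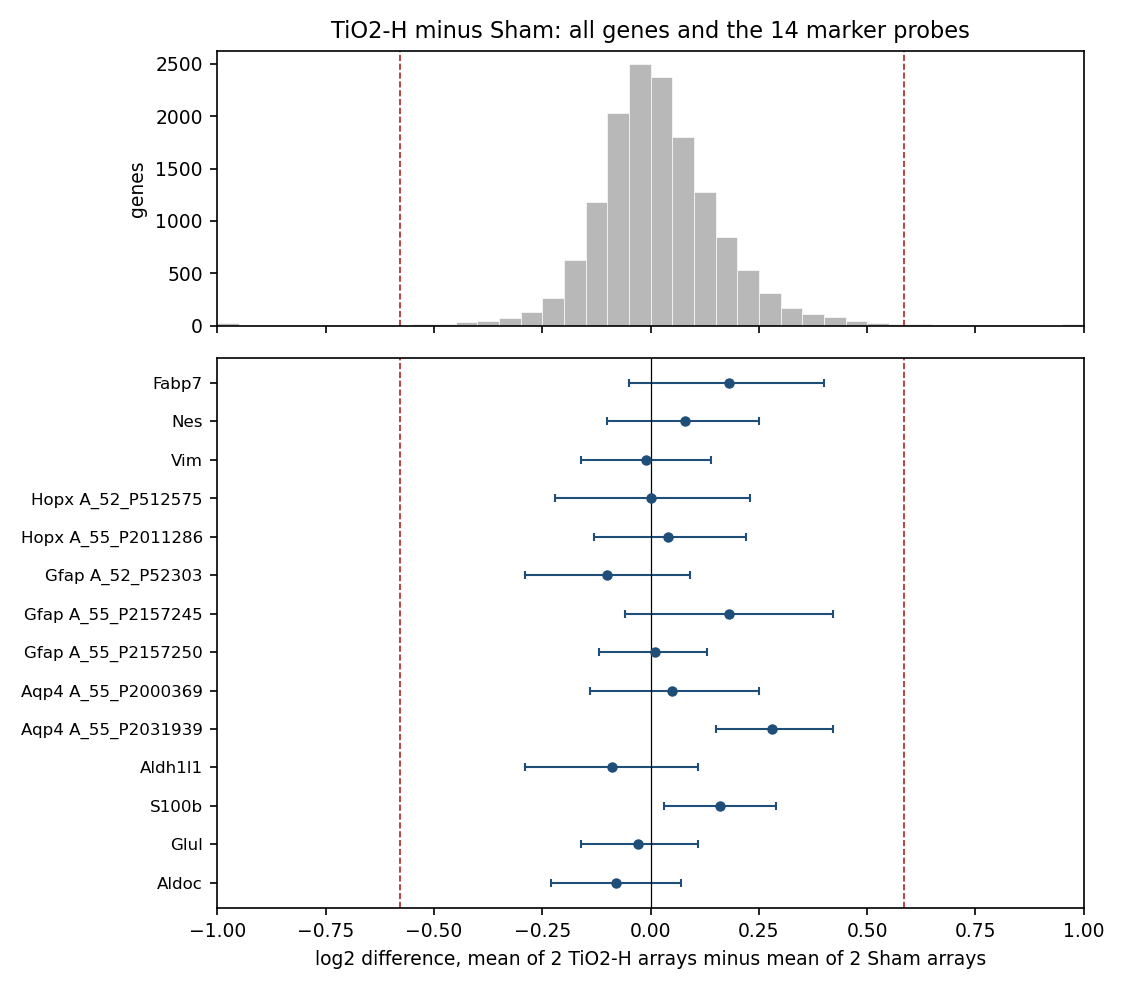
Log2 difference of the mean of 2 TiO2-H arrays minus the mean of 2 Sham arrays (x axis), above as the number of genes per bin of 0.05 (differences beyond 1 in either direction are counted in the outermost bins) and below for the 14 marker probes with 95% intervals from limma. Dashed lines mark 1.5-fold and 0.67-fold. Every marker interval stays between these lines, and those of S100b (0.03 to 0.29) and the second Aqp4 probe (0.15 to 0.42) leave out 0.

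The intervals of all 14 probes lay inside 0.67-fold to 1.5-fold, the thresholds of the study. Of the 10 markers, 3 lay above Sham on both TiO2-H arrays and 3 below. Over the 16166 genes tested, the same was seen for 28.5% above and 27.1% below, and over the 14631 genes well above background on all 4 arrays for 30.2% and 26.6%, so that the markers were close to the background in both directions. The median log2 difference was -0.004 over the markers and 0.004 over all genes. It was 0.039 over the 4 radial glia markers and -0.054 over the 6 astrocyte markers, a difference that was not tested. The summed scaled signal of the radial glia markers was 116 on Sham male, 105 on Sham female, 121 on the array labelled TiO2-H male and 123 on that labelled TiO2-H female, which is mostly Fabp7. That of the astrocyte markers was 129, 132, 122 and 127, mostly Aldoc.

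These counts moved with the scaling and with single arrays. Without scaling between arrays, the median over all genes shifted to 0.119, 6 markers lay above and 0 below, and the differences of Vim, Gfap, Aldh1l1, Glul and Aldoc turned positive, while relative to the median of all genes 4 of the 10 markers were higher with and without scaling. Leaving out the Sham male array gave 5 markers above, leaving out the Sham female array gave 6 below, and leaving out the array labelled TiO2-H female gave 5 below. Fabp7, Nes and S100b kept a positive difference under all 16 alternatives, but most of these could not change the sign. Filter, floor, probe choice, outlier spots, sex term and the deposited values left their differences as they were. A marker above Sham on both TiO2-H arrays also stays positive with any single array left out. Only the changes of scaling and background correction could have turned the sign. Without the Sham female array Fabp7 was at 0.10 and Nes at 0.03, and without the Sham male array Nes was at 0.12. S100b stayed between 0.14 and 0.17 with each array left out. The brightest Gfap probe had -0.16 without Sham female and -0.04 without Sham male, and Aldh1l1 -0.02 and -0.15. The second Aqp4 probe kept its positive sign under the 14 in which it was read on its own, with the same limit.

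Within a sex label, 0 of the 10 markers were at or above 1.5-fold or at or below 0.67-fold. Of all genes well above background on all 4 arrays, 1.42% passed on the arrays labelled male and 1.56% on those labelled female. Without a difference in exposure, 1.45% passed between Sham female and Sham male and 1.02% between the arrays labelled TiO2-H female and TiO2-H male, and again 0 markers did. The log2 difference on the arrays labelled male and female was 0.09 and 0.27 for Fabp7, 0.01 and 0.14 for Nes, and 0.18 and 0.14 for S100b. It was 0.26 and 0.31 for the second Aqp4 probe. Gfap (brightest probe) had -0.14 and -0.05, Aldh1l1 -0.01 and -0.16, and Aldoc -0.11 and -0.06. Among the others, Hopx (-0.10 and 0.11), Vim (-0.06 and 0.04) and Aqp4 (brighter probe, -0.01 and 0.12) had opposite signs. For scale, the spread of the log2 ratio over genes, as a robust SD, was 0.131 and 0.136 for the pairs of arrays labelled male and female and 0.087 and 0.081 for the pairs within Sham and within TiO2-H. The ratio of Sham female to Sham male ranged from -0.15 (Fabp7 and the dim Gfap probe) to 0.13 (Aldh1l1) on the log2 scale. Of the 14 probes, the second Aqp4 probe was the only one with a difference larger in size than 0.15 on both labels. S100b had 0.18 and 0.14, against 0.01 between its own Sham arrays.

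**Figure D3:**
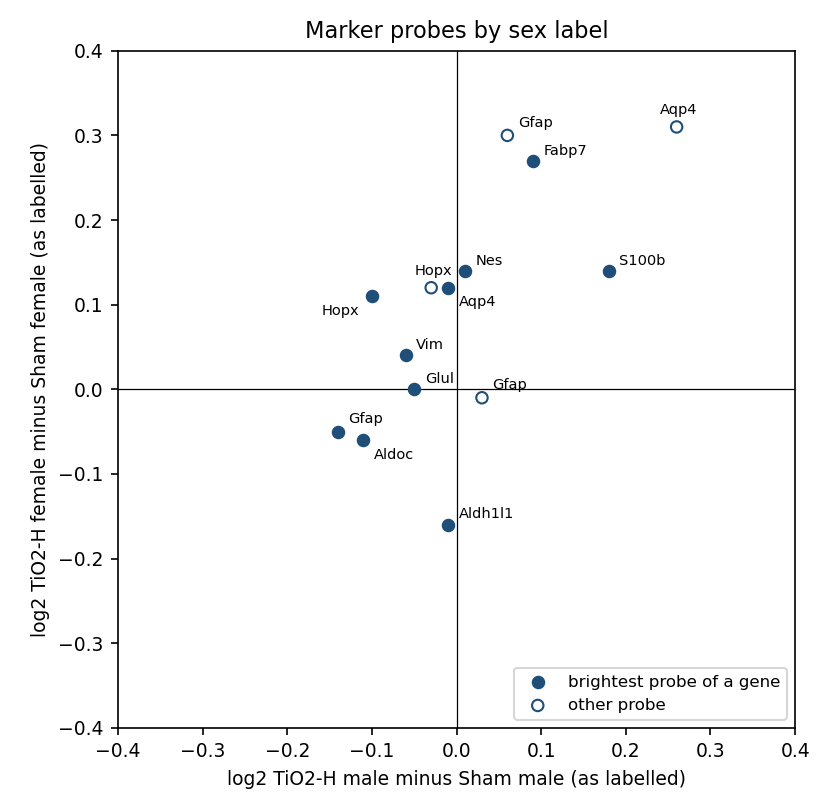
Log2 difference of TiO2-H minus Sham on the arrays labelled male (x axis) and labelled female (y axis), 1 array per group, for the 14 marker probes; filled points are the brightest probe of each gene and open points other probes. The second Aqp4 probe (0.26 and 0.31) lies apart from the other probe of Aqp4 (-0.01 and 0.12), and the 3 Gfap probes are scattered.

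Further genes of the same cell types were taken as lists. Of 17 other radial glia genes, all well above background on all 4 arrays, 8 lay above and 3 below. Over all genes so measured, 30.2% lay above and 26.6% below. The median log2 difference of the list was 0.045. The largest was Ptprz1, a receptor tyrosine phosphatase of radial glia, with processed signals of 8777 on Sham male, 8662 on Sham female, 11344 on the array labelled TiO2-H male and 11352 on that labelled TiO2-H female. Both TiO2-H arrays lay well clear of a tight Sham pair (log2 difference 0.27 ± 0.04, SE, limma, adjusted p = 0.351). The next was Tnc, the matrix protein tenascin C, with 232, 232, 279 and 294 (log2 difference 0.19 ± 0.05, SE, limma, adjusted p = 0.351). No gene of this list passed the test, and 2 of 17 had an unadjusted p under 0.05 against 12.8% of all genes.

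Of 22 other astrocyte genes, all well above background on all 4 arrays, 5 lay above and 5 below, with a median log2 difference of -0.008. The shares over all genes so measured were 30.2% above and 26.6% below. Nfia, a transcription factor needed for astrocyte formation, had the largest difference with 0.23 ± 0.08 (SE, limma, adjusted p = 0.361), and Gjb6, the gap junction protein connexin 30, the next with -0.21 ± 0.07 (SE, limma, adjusted p = 0.367). Neither passed the test. A second, dim probe of Nfia, well above background on 2 arrays, had -0.96 ± 0.72 (SE). Slc1a3, a glutamate transporter of radial glia and astrocytes, had 0.04. Slc1a2, the main glutamate transporter of astrocytes, was read by 3 probes that disagreed. The brightest (A_55_P1955412) had processed signals of 566, 561, 615 and 606 and a log2 difference of 0.00 ± 0.04 (SE). A dimmer one (A_55_P2136847) had 48.3 and 56.7 on Sham male and female and 97.9 and 104 on the arrays labelled TiO2-H male and female. Both TiO2-H arrays lay clear of Sham, past 1.5-fold on both labels (0.92 and 0.74), but the log2 difference of 0.83 ± 0.11 (SE) did not pass the test (limma, adjusted p = 0.351). The third (A_55_P2392625) had 0.15 ± 0.09 (SE).

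Genes known from reactive astrocytes, the state that astrocytes take up after injury or inflammation, were examined next, as Gfap and Vim belong to this response as well. Of 31 such genes, 27 were tested and 24 were well above background on all 4 arrays. Of the 27, 7 lay above and 6 below, with a median log2 difference of 0.002 (0.032 over the 24). The shares over all genes tested were 28.5% above and 27.1% below. Among the 6 below, 1 gene was well above background on Sham male only. Its order rests on the lowest signals well above background put in place on the other arrays. Lcn2 (-0.03 ± 0.12, SE) and Serpina3n (-0.11 ± 0.23, SE), widely used markers of the reactive state, did not pass the test. Of the 27, 3 had an unadjusted p under 0.05 (limma), against 12.8% of all genes. They were S1pr3 (0.25 ± 0.06, SE) and B3gnt5 (0.22 ± 0.06, SE), both above Sham, and Cxcl10, which lay below. None of the 3 passed the test (limma, adjusted p = 0.351 for each). Cd109, a membrane protein, had the largest difference among the 24, with processed signals of 39.0, 37.0, 52.1 and 155, so that it rested on the array labelled TiO2-H female (log2 difference 1.13 ± 0.62, SE, limma, adjusted p = 0.461). Cd14, a receptor for bacterial lipopolysaccharide, was next and likewise high on that array only (76.6, 79.8, 82.7 and 128, log2 difference 0.28 ± 0.25, SE). Cxcl10, an interferon-induced chemokine, was the only gene of the lists whose brightest probe was past a fold threshold in the same direction on both labels. Its dim processed signals were 59.4 and 64.8 on the Sham arrays, 40.1 on the array labelled TiO2-H female and 24.9 on the array labelled TiO2-H male, where it was not well above background. Only 1 of the 2 TiO2-H arrays therefore measured it, with a log2 difference of -0.82 on the female label. The value on the male label and the limma estimate (-0.97 ± 0.19, SE, adjusted p = 0.351) rest on the lowest signal well above background put in its place and are bounds.

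Relatives and partners of the marker proteins gave 10 above and 4 below among 25 of 27 genes tested, against 30.2% above and 26.6% below over all genes well above background on all 4 arrays, with a median of 0.021. Des and Aqp9 stayed at background on every array. Plec, the plectin that crosslinks intermediate filaments, had a log2 difference of 0.22 ± 0.05 (SE), and S100a11, a relative of S100b, had 0.17 ± 0.04 (SE, limma, adjusted p = 0.351 for both). Fabp5 and Aldoa, relatives of Fabp7 and Aldoc, had -0.02 and 0.00.

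**Figure D4:**
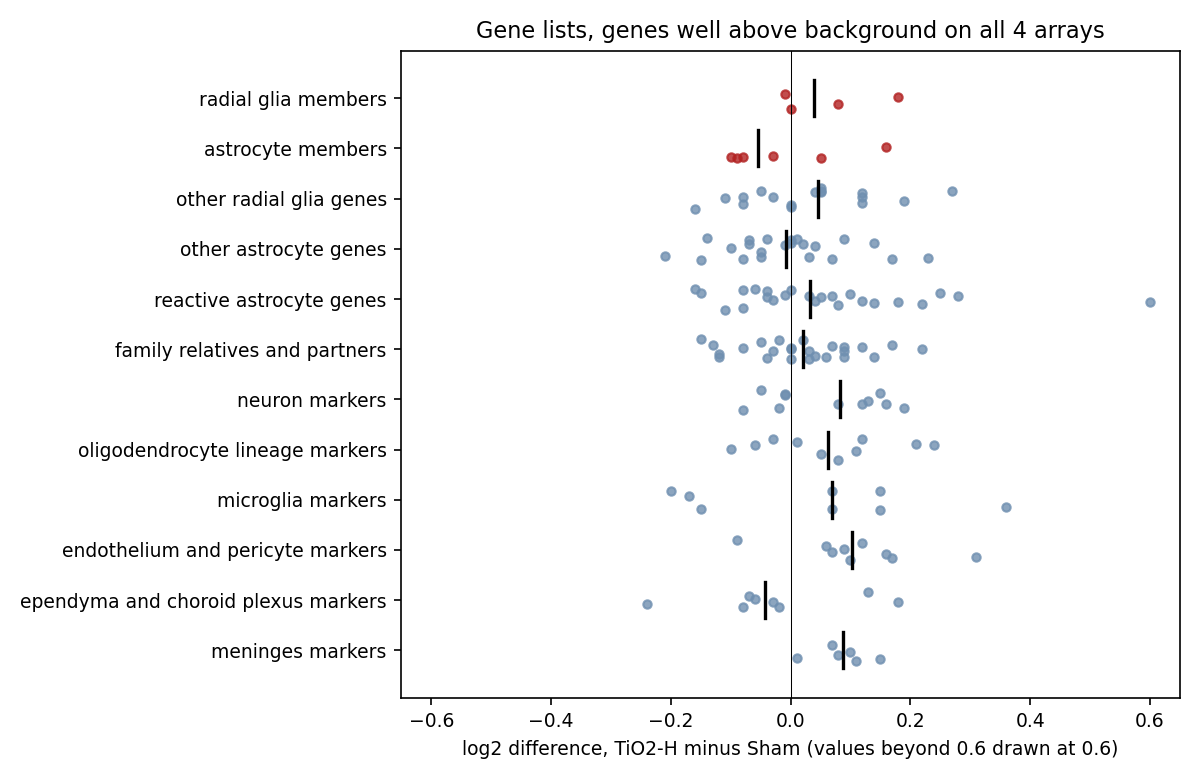
Log2 difference of TiO2-H minus Sham (x axis) for each gene well above background on all 4 arrays (points, scattered vertically for legibility), by gene list (blood and pituitary are not drawn); red points are the markers and black bars the medians of the genes drawn. Medians of the lists drawn run from -0.054 (astrocyte markers of the group of 10, labelled members) to 0.103 (endothelium and pericytes), and most points lie within 0.3 of 0, with Cd109 (1.13) drawn at the edge at 0.6.

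Markers of the other cell types of the brain were read as well. Their counts stand beside the 30.2% above and 26.6% below over all genes well above background on all 4 arrays. The lists are small, and no shift of a cell type is read from them. Neuron markers had a median log2 difference of 0.083 (5 of 11 above and 2 below), with Snap25 at 0.19 and Map2 at 0.16, and their summed scaled signal ranged over 399 to 403 on Sham and 400 to 417 on TiO2-H. Markers of the oligodendrocyte lineage had 0.063 (5 of 10 above and 0 below), with Olig1 at 0.21, and sums of 25.5 to 25.6 on Sham and 27.1 to 27.8 on TiO2-H. Microglia markers had 0.07 (5 of 8 above and 3 below), with P2ry12 at 0.36 and C1qb at -0.20, and sums of 17.0 to 17.4 against 17.7 to 17.9. Markers of endothelium and pericytes had 0.103 (4 of 9 above and 1 below, Flt1 at 0.31 and Cldn5 at 0.17), with sums of 23.1 to 24.3 against 23.6 to 24.3. Meninges markers had 0.087 (5 of 6 above and 0 below, Dcn at 0.15 and Col1a1 at 0.11), with sums of 22.5 to 22.7 against 23.9 to 24.4. Markers of ependyma and choroid plexus had -0.043 (2 of 8 above and 2 below, Tmem212 at -0.24 and Ccdc153 at 0.18), with sums of 89.1 to 91.6 against 87.0 to 88.3. Of the 7 genes of blood and pituitary, 4 were tested, with 0 above and 2 below, and a median of 0.056 (-0.169 over the 3 well above background on all 4 arrays). For this count, the shares over all genes tested are 28.5% above and 27.1% below. Hba-a1, an α globin of red blood cells, had a log2 difference of -0.25 ± 0.05 (SE), Pomc of the pituitary had 0.28 ± 0.28 (SE), and Gh was well above background on the array labelled TiO2-H male alone, with a processed signal of 301. No marker of these lists reached an adjusted p under 0.05 with limma, where the lowest was 0.351, and their part in the differences of the glial markers was not tested.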

How the data were processed

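The authors deposited scanner files of 4 one-color Agilent arrays, whose processed signal is an intensity with local background removed by Feature Extraction 10.10.1.1 and no scaling between arrays. Control and outlier spots were left out, signals were divided by the 75th percentile of the array and put on a log2 scale, spots of a probe were averaged, and dim values were raised to the lowest signal well above background unless higher. TiO2-H was compared with Sham with limma 3.58.1 (R 4.3.3, Python 3.11.15) on all probes well above background on at least 1 array, with Benjamini-Hochberg adjustment and no sex term, after a test on simulated data. The p-values measure the spread between pools only. As both pools of an exposure came from the same dams, SE, intervals and p-values leave out the spread between litters. Genes were named through RefSeq (GRCm38.p6), which held 98.0% of the NM and NR accessions. As the array design is older, no probe positions are given. Markers and lists were chosen with earlier results of these data known. All markers are named, and of each list the 2 largest differences among genes read on all 4 arrays, and genes past a fold threshold on both labels. Slc1a2, Slc1a3, Lcn2, Serpina3n, S1pr3, B3gnt5, Fabp5, Aldoa, Des, Aqp9 and Gh were named after their values were seen. 1 gene that this rule names is not reported here. Alternatives changed the scaling, background correction (normexp, offset 50), filter, floor, probe choice, outlier spots, sex term, threshold and arrays used. Quantities in the deposited value table equalled the processed signal.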

Additional observations from a re-analysis of the deposited data

Results flagged for a closer look

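For Hopx, Vim and the brighter Aqp4 probe the difference between TiO2-H and Sham had opposite signs on the arrays labelled male and female. For Glul it was negative on the male label and level with Sham on the female label. With 1 array per group, the contrast between labels was not tested. The brighter Aqp4 probe had only -0.01 on the male label, and the second Aqp4 probe was positive on both labels (0.26 and 0.31). For Hopx the log2 difference on the female label exceeded that on the male label by 0.21 (-0.10 and 0.11), for Aqp4 by 0.13 (-0.01 and 0.12, brighter probe), for Vim by 0.09 (-0.06 and 0.04), and for Glul by 0.06 (-0.05 and 0.00 after rounding). Because the TiO2-H arrays went against their sex labels, the labels may not give the sex of the pools.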

How the results depend on the processing

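No marker reached an adjusted p under 0.05 under any alternative run (limma), with a lowest marker adjusted p of 0.16 without scaling, 0.492 with sex as labelled as a term, which pairs the arrays by label, and 0.531 with sex crossed within TiO2-H, and 0 markers passed the fold thresholds within a sex label, also at 2-fold or with the TiO2-H arrays crossed. Without scaling, 6 markers lay above and 0 below, the median of the markers was 0.1103, and the log2 differences of Vim (0.1034), Gfap (0.01557), Aldh1l1 (0.0259), Glul (0.08748) and Aldoc (0.03415) changed sign. This follows from the higher signal of the TiO2-H arrays, which moved the median of all genes to 0.119. With quantile normalization Vim had 0.01185 and Hopx -0.01112, with the mean of the probes of a gene Gfap had 0.02996, and with normexp on the median signals the Gfap probe A_55_P2157250 had -0.04876. The Gfap mean takes in its dim probe A_55_P2157245 (0.18), beside -0.10 for the brightest and 0.01 for A_55_P2157250. The cause of the other changes was not tested. Leaving out 1 array at a time gave 3 to 5 markers above, 3 to 6 below and a median of -0.03698 to 0.03383. It moved Vim from -0.04585 to 0.02383, Hopx from -0.06298 to 0.06867 and Aqp4 from -0.009314 to 0.1172. A left-out array leaves 1 sample in a group, which is assumed to vary like the others. Fabp7, Nes and S100b kept their sign under all 16 alternatives, of which only those of scaling and background correction could have changed it. The precision is limited by 2 arrays per exposure, by 1 spot per marker probe, for which probes spotted at least 4 times had a median SD between spots of 0.06 to 0.07 on the log2 scale, and by the slide row shared within each exposure.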
